A study of Mus musculus with 12 samples.

Results

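Mitochondrial complex I, the NADH:ubiquinone oxidoreductase, is the entry point of electrons from NADH into the respiratory chain. Its genes fell under a rule on symbols: protein-coding genes named Ndufa, Ndufb, Ndufc, Ndufs, Ndufv or Ndufaf with a number, Ndufab1 included, that had at least 10 counts in at least 4 libraries. Of 35496 genes in the deposited count table, 50 had such a symbol, 46 of them were annotated as protein-coding, and all 46 met the count rule. The lowest count of any member in any library was 101, so the filter on low counts removed none of them. The 4 left out were Ndufb1-ps, annotated as a noncoding transcript, and the processed pseudogenes Ndufb4c, Ndufa11b and Ndufs6b.

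The RNA came from the cochlea, the part of the inner ear that senses sound, of FVB/NCrl inbred mice at postnatal day 60. Awake mice spent 30 minutes at 70 dB SPL, the ambient control group, or in noise of 94 or 105 dB SPL, and RNA was taken right after the exposure. All 3 groups shared the strain, the age and the exposure time, and the labels name no transgene, drug or other agent. Each group had 4 libraries, with totals of 31141706 to 42317781 counts over the 12 libraries, and whether each was made from 1 mouse or a pool is not labelled, so the p-values speak of the variation among these libraries, part of which can be technical.

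Complex I passes electrons from NADH through a flavin and a chain of iron-sulfur clusters to ubiquinone, and pumps protons across the inner mitochondrial membrane. Its matrix arm holds the N module, where NADH is oxidised, and the Q module, where ubiquinone is reduced. The membrane arm has a proximal and a distal part, whose proton-pumping core proteins are encoded by the mitochondrial genome, and assembly factors help to build the enzyme without staying in it. In the cochlea the stria vascularis, whose marginal cells maintain the endocochlear potential, and the hair cells are rich in mitochondria. The 46 genes were grouped by textbook role into 10 of the N module, 5 of the Q module, 10 of the proximal and 10 of the distal membrane arm, the acyl carrier protein Ndufab1, the Ndufa4 pair and 8 assembly factors.

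Promoter letters are shown first, because known regulators of respiratory genes bind short motifs near the start of transcription. The RefSeq promoter table for GRCm38.p6 held 40 of the 46 members, each as a window of 250 bases before to 50 bases after the annotated start. Capitals mark the motif in every line below. Each motif was searched on both strands. GCGCATG, part of the site preferred by the factor NRF1, was found in 7 of 40 members, or 17.5%, against 4.41% of 27025 genes with a window. Of these 7 members 5 were called higher at 94 dB, as were 19 of the 33 members without the motif. It is shown in Ndufa11 and Ndufb6, whose transcripts rose at 94 dB, and in Ndufaf4, which was not called.
Ndufa11, chr17:56717676-56717735, plus strand: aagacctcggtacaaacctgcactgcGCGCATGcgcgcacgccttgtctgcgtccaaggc
Ndufaf4, chr4:24897944-24898003, plus strand: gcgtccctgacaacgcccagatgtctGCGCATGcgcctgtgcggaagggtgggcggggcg
Ndufb6, chr4:40279465-40279524, minus strand: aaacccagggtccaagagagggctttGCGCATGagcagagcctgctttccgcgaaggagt

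The motif AAGATGGC, bound by the factor YY1, was found in 8 of 40 members, or 20%, against 3.19% of all genes, both strands searched. All 8 matches lay on the strand of the gene and within the 50 bases after the annotated start, at distances of 11 to 39 bases from it. The motif holds the letters ATG, and whether these matches overlap the start of translation was not examined. The members were Ndufa3, Ndufa9, Ndufaf8, Ndufb8, Ndufc1, Ndufs4, Ndufs6 and Ndufs7, and 6 of them were called higher at 94 dB, as were 18 of the 32 members without the motif. The 30 bases around the match are given for 4 of these members that rose and for Ndufs4, which was not called.
Ndufa3, chr7:3617384-3617413, plus strand: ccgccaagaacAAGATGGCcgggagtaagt
Ndufb8, chr19:44555393-44555422, minus strand: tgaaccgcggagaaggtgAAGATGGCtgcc
Ndufs6, chr13:73328433-73328462, minus strand: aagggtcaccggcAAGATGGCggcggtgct
Ndufc1, chr3:51408915-51408944, minus strand: gcctgcggaacAAGATGGCgccgtccgtag
Ndufs4, chr13:114388045-114388074, minus strand: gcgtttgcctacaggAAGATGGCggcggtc

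Other motifs were searched in the same windows. CCGGAAG, a core of sites for ETS-family factors such as GABP, was in 15% of members and 9.93% of genes, and GGGGCGGGG, a site for SP and KLF factors, in 15% and 12.9%. TATAAA was in 10% and 15.7%, and the E-box CACGTG in 5% and 8.09%. The cyclic AMP response element TGACGTCA was in 3 members, or 7.5%, against 2.03%, and 1 of the 3 was called at 94 dB. The median GC content of the member windows was 59.3%, against 52.7% over all windows. These matches describe letters in the windows only and were not tested.

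At 70 dB the members spanned a wide range of levels per length, given as CPM (read counts scaled to library size with TMM factors) per kilobase of union exon. Ndufa4, a protein first assigned to complex I and since placed in complex IV, was the highest at 117 ± 8.30 CPM per kb (SD, n = 4). Ndufb11, a distal arm subunit encoded on the X chromosome, stood at 103 ± 6.12 CPM per kb. By role, the median level was 58.7 CPM per kb in the Q module, 46.7 in the proximal arm, 34.8 in the N module and 28.6 in the distal arm. The assembly factors, which act in building the enzyme and are not part of it, had a median of 9.42 CPM per kb and a range of 2.51 to 15.8. When the members were set in order, the 70 dB libraries of 41 of the 45 neighbouring pairs overlapped.

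The lowest levels were those of Ndufaf2, a chaperone of late assembly, at 2.51 ± 0.147 CPM per kb, and of Ndufb2, a distal arm subunit with 5628 bases of annotated exon, at 3.17 ± 0.268 CPM per kb. Ndufs5 came next at 4.52 ± 0.849 CPM per kb, but its level is uncertain. A processed pseudogene, BC002163, is 99.4% identical to it over 319 bases and held 45.7 ± 8.31 CPM at 70 dB, against 3.89 ± 0.730 CPM for Ndufs5 itself (SD, n = 4). Ndufa4l2, the hypoxia-inducible relative of Ndufa4, followed at 4.59 ± 0.870 CPM per kb. Length is counted over all annotated exons, and the order depends on that choice. With the longest protein-coding transcript as the length, Ndufa4 was highest at 264 CPM per kb and Ndufb2 lowest at 4.09, Ndufb11 stood at rank 8 and Ndufaf2 at rank 39. The role medians were then 75.4 CPM per kb in the Q module, 61.8 in the proximal arm, 60.6 in the distal arm, 57.7 in the N module and 10.6 in the assembly factors.

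**Figure D1:**
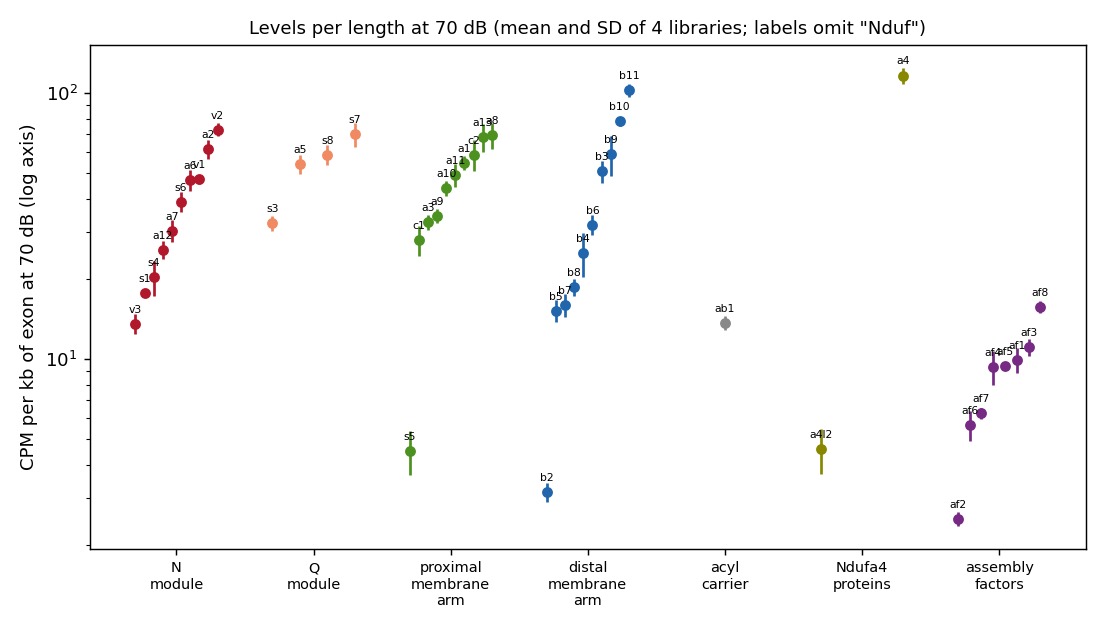
Levels of 45 of the 46 members at 70 dB by role, as TMM-scaled CPM per kilobase of union exon on a log axis; points are means and bars SDs of 4 libraries, and labels omit the prefix Nduf. Ndufa4 is highest at 117 and Ndufaf2 lowest at 2.51, and the assembly factors lie at or below 15.8.

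Some libraries stood apart within their group before any comparison. In replicates 3 and 4 of the 94 dB group the median deviation of the 46 members from their 70 dB mean was 0.47 and 0.53 on the log2 scale, against 0.24 and 0.17 in replicates 1 and 2. In the 105 dB group replicate 3 had a median of 0.40 and all 46 members above the 70 dB mean, while the other 3 libraries had medians of 0.052 to 0.12. In these 3 libraries short genes were high across all genes: Spearman's rho between exon length and a gene's log2 deviation was -0.24, -0.28 and -0.21, against -0.11 to 0.29 in the other 9. When a smooth trend of all genes with GC content and length was removed in each library, their medians were 0.28, 0.35 and 0.24, still above the other libraries of their groups. The part of these library differences in the results was not tested, and counts are given below with and without the libraries.

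After 94 dB noise, 26 of the 46 members were higher than at 70 dB and none was lower, in edgeR's quasi-likelihood test at a p under 0.05 after Benjamini-Hochberg (BH) adjustment over all genes. Across all 19497 genes tested, 26.1% were called in this comparison, 13.9% higher and 12.2% lower. Before adjustment, 32 members were higher and none lower at a p under 0.05, against 19.6% and 18.7% of all genes. DESeq2 called 28 members higher and none lower, where 3099 of 19497 genes were higher and 2678 lower. The median log2 fold change of the members was 0.35, against -0.018 over all genes, and 40 of the 46 had a positive value. The libraries of the groups did not overlap, with 94 dB higher, in 25 members, and in 13.0% of all genes, and in no member with 94 dB lower, against 12.3%. In bulk tissue a change in the number of cells of a type and a change in RNA per cell cannot be told apart.

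Leaving out 94 dB replicates 3 and 4 together left 14 members called, all of them among the 26, with a median log2 fold change of 0.21. In that fit 1034 of 20202 genes were higher and 576 lower. When the trend of all genes on GC content and length was removed in each library, 20 were called, 19 of them among the 26, with a median of 0.22. Over all genes, 1829 of 19497 were then higher and 1177 lower. The values of 12 of the 26 shrank by more than 1.5 times, and those of members that lost the call included 0.23 for Ndufa8, 0.15 for Ndufa6, 0.18 for Ndufs3, 0.14 for Ndufs8, 0.14 for Ndufa11 and 0.090 for Ndufaf3. The 12 that were called under every alternative were Ndufa1, Ndufa2, Ndufa3, Ndufa9, Ndufb6, Ndufb8, Ndufb11, Ndufc2, Ndufs5, Ndufs6, Ndufv1 and Ndufaf2. They come from each structural part of the enzyme except the Q module, and 1 is an assembly factor. No alternative changed how reads were assigned to genes. Ndufa2, Ndufb6, Ndufb11 and Ndufaf2 share 11.5%, 39.0%, 12.9% and 65.6% of their exon bases with a gene on the opposite strand. For Ndufaf2 that gene held 0.0078 CPM at 70 dB. Ndufs5, Ndufs6 and Ndufb11 have a near-identical pseudogene copy, of which that of Ndufs6 held no counts.

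**Figure D2:**
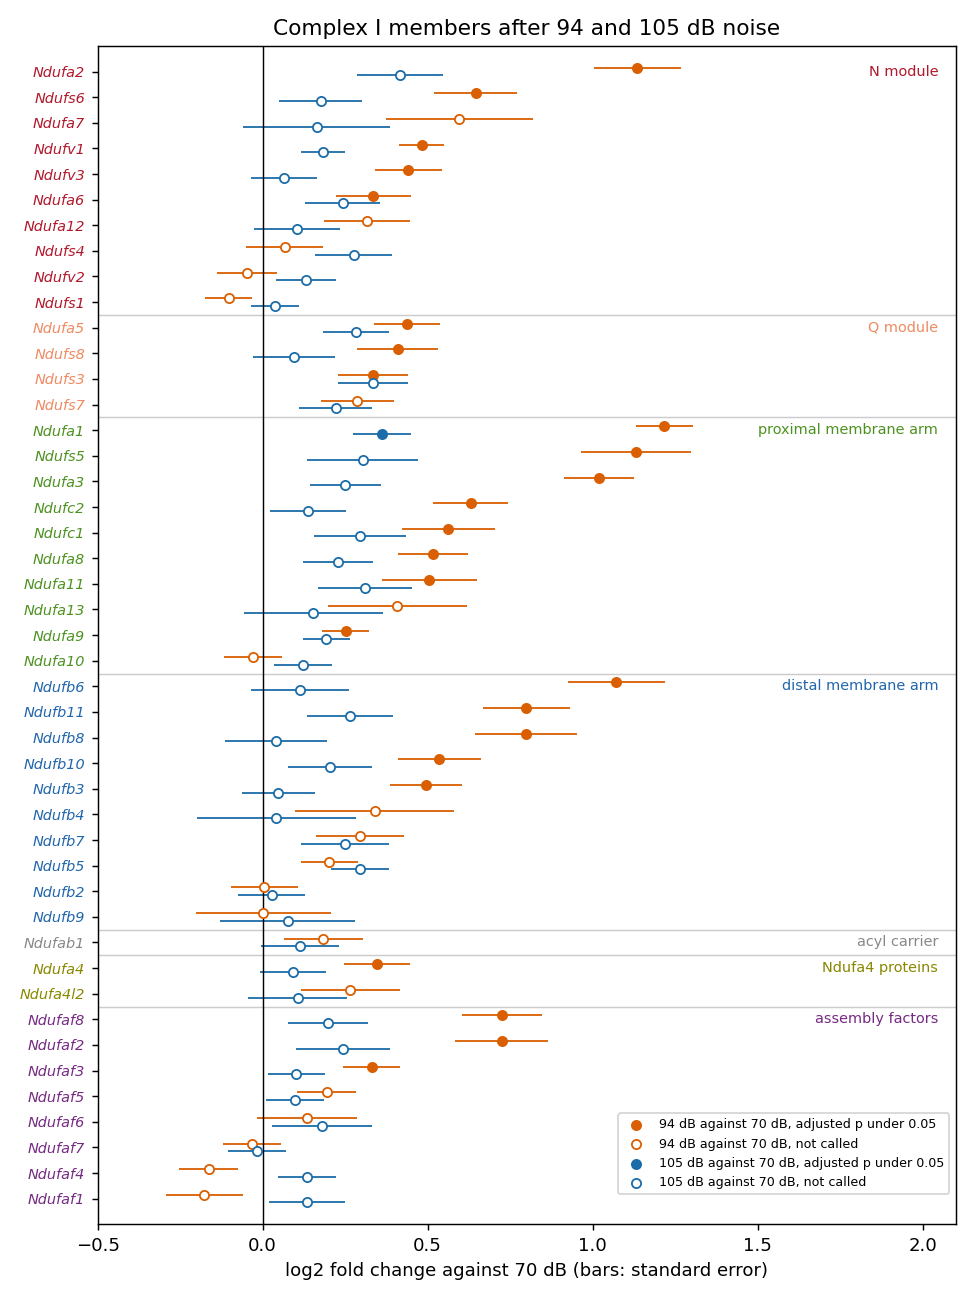
Log2 fold changes of 45 of the 46 members against 70 dB by role, with standard errors as bars; orange is 94 dB, blue is 105 dB, and filled points have an adjusted p under 0.05 in edgeR's quasi-likelihood test. At 94 dB 25 points are filled, all to the right of 0, and at 105 dB only Ndufa1 is filled.

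The proximal membrane arm had the most calls, 8 of 10 higher at 94 dB with a median log2 fold change of 0.54. Ndufa1, a small subunit with 1 membrane helix encoded at chrX:37187588-37191163 (GRCm38, minus strand), rose most of all members. Its values were 22.0, 24.5, 21.7 and 23.5 CPM at 70 dB, 52.1, 49.8, 58.2 and 53.3 CPM at 94 dB and 30.9, 32.3, 30.6 and 24.3 CPM at 105 dB. Each 94 dB library lay above each 70 dB library, and the 105 dB libraries lay between, with replicate 4 inside the 70 dB range. The log2 fold change at 94 dB was 1.22 ± 0.087 (SE), or 2.33-fold, with an edgeR adjusted p of 3.93e-07.

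Ndufa3, another small membrane subunit, lies at chr7:3617373-3620327 (plus strand) and had 35.5, 32.0, 31.3 and 35.4 CPM at 70 dB, 61.0, 56.7, 76.6 and 77.8 CPM at 94 dB and 38.3, 43.0, 44.4 and 34.0 CPM at 105 dB. Its 94 dB libraries were all above the other 2 groups, with replicates 3 and 4 above replicates 1 and 2. This was a log2 fold change at 94 dB of 1.02 ± 0.11 (SE, edgeR adjusted p = 2.35e-05), and without 94 dB replicates 3 and 4 it was 0.81 (adjusted p = 3.18e-04). Ndufs5, a subunit of the intermembrane space face held by disulfides, had 4.03, 3.99, 2.89 and 4.64 CPM at 70 dB, 7.18, 6.91, 9.81 and 10.2 CPM at 94 dB and 4.91, 4.45, 5.60 and 4.23 CPM at 105 dB. This gave a log2 fold change of 1.13 ± 0.17 (SE, edgeR adjusted p = 2.75e-04). The sum of Ndufs5 and its near-identical pseudogene was 49.6 ± 8.74 CPM at 70 dB and 59.0 ± 10.5 CPM at 94 dB (SD, n = 4), a ratio of 1.19, and the ranges overlapped. How reads that fit both were counted is not given in the sources used here, so the rise of Ndufs5 is uncertain.

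Of the other proximal members, Ndufc2 and Ndufc1, a pair of small membrane subunits, rose by 0.63 and 0.56 on the log2 scale. Ndufa8, a disulfide-bonded intermembrane space subunit, rose by 0.52, Ndufa11, a multi-helix membrane subunit, by 0.51, and Ndufa9, a nucleotide-binding subunit at the joint of the arms, by 0.25. The Ndufa11 call was lost without 70 dB replicate 3, 94 dB replicate 3 or 94 dB replicate 4, with adjusted p-values of up to 0.0644. Ndufa13, also known as GRIM-19, had a value of 0.41 ± 0.21 (SE) and was not called. Ndufa10, which has the fold of a nucleoside kinase, had 143, 156, 135 and 153 CPM at 70 dB and 128, 131, 145 and 171 CPM at 94 dB, groups that overlapped, with a log2 fold change of -0.029 ± 0.087 (SE).

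In the N module 5 of 10 members were higher at 94 dB, against 13.9% of all genes, with a median of 0.39. Ndufa2, an accessory subunit with a thioredoxin-like fold encoded on chromosome 18, had 32.4, 39.1, 33.8 and 35.5 CPM at 70 dB, 74.8, 70.1, 87.1 and 77.2 CPM at 94 dB and 40.6, 42.6, 64.1 and 40.8 CPM at 105 dB. All 94 dB libraries were above all others, and at 105 dB replicate 3 stood well above the remaining 3 libraries. The log2 fold change at 94 dB was 1.13 ± 0.13 (SE, edgeR adjusted p = 1.04e-04). Part of its exons, 11.5%, overlaps Tmco6 on the opposite strand, a gene with a log2 fold change of 0.27, so reads in that stretch cannot be assigned where strand was not used.

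Ndufv1 is the core subunit that binds NADH and the flavin. It had 124, 129.8, 119 and 128 CPM at 70 dB, 189, 172, 161 and 178 CPM at 94 dB and 141, 145, 152 and 132 CPM at 105 dB. At 94 dB every library was above every 70 dB and 105 dB library, and here replicate 1 was the highest and replicate 3 the lowest. The log2 fold change was 0.48 ± 0.067 (SE, edgeR adjusted p = 1.82e-04), and 0.53 without 94 dB replicates 3 and 4, and 0.28 (adjusted p = 0.0114) after removal of the GC and length trend. Ndufs6, a zinc-binding subunit, rose by 0.65, Ndufv3 by 0.44 and Ndufa6, which anchors an acyl carrier protein, by 0.33. The Ndufa6 call (adjusted p = 0.0414) was lost in 6 of the 12 fits that leave out 1 library, namely 70 dB replicate 1, 3 or 4, 94 dB replicate 3 or 4, or 105 dB replicate 2, with adjusted p-values of up to 0.131.

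The other core subunits of the N module, Ndufs1 and Ndufv2, gave smaller values. Ndufs1, the largest subunit of the enzyme and the carrier of several iron-sulfur clusters, had 147, 145, 138 and 144 CPM at 70 dB, 151, 137, 119 and 127 CPM at 94 dB and 150.3, 152, 147 and 139 CPM at 105 dB. The groups overlapped, and at 94 dB replicates 3 and 4 were the lowest of all 12 libraries. Its log2 fold change at 94 dB was -0.10 ± 0.072 (SE, edgeR adjusted p = 0.312), and it was 0.075 with the GC and length trend removed. Ndufv2, a further iron-sulfur core subunit, had 144, 163, 156 and 163 CPM at 70 dB, 143, 133, 159 and 171 CPM at 94 dB and 159, 162, 203 and 162 CPM at 105 dB, with overlapping groups and a log2 fold change of -0.049 ± 0.091 (SE, BH-adjusted p = 0.734). Ndufs4, an accessory subunit whose loss is a known cause of Leigh syndrome, had a value of 0.067 ± 0.12 (SE), Ndufa12 of 0.32 ± 0.13 and Ndufa7 of 0.60 ± 0.22, none of them called.

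In the Q module 4 of 5 members were higher at 94 dB, against 13.9% of all genes, with a median of 0.35 and little spread, from 0.29 to 0.44. Ndufs3, a core subunit that binds no cofactor, had 68.0, 74.3, 66.0 and 74.3 CPM at 70 dB, 97.1, 85.5, 90.5 and 83.2 CPM at 94 dB and 85.9, 82.4, 114 and 73.8 CPM at 105 dB. Every 94 dB library was above every 70 dB library, and its log2 fold change of 0.33 ± 0.11 (SE, BH-adjusted p = 0.0297) was close to the 0.33 ± 0.11 at 105 dB (adjusted p = 0.125). Ndufs8, an iron-sulfur core subunit, had 71.0, 80.7, 69.3 and 82.1 CPM at 70 dB, 85.3, 82.3, 111 and 124 CPM at 94 dB and 77.1, 76.9, 94.7 and 75.2 CPM at 105 dB, with replicates 3 and 4 of 94 dB far above the rest and a log2 fold change of 0.41 ± 0.12 (SE, BH-adjusted p = 0.0259). The Ndufs3 call was lost without 70 dB replicate 1 or 3 or 94 dB replicate 1 or 3, and the Ndufs8 call without 70 dB replicate 1 or 3 or 94 dB replicate 3 or 4, with adjusted p-values of up to 0.0774 and 0.0787. Ndufs7, which carries the last iron-sulfur cluster before ubiquinone, had 108, 135, 112 and 127 CPM at 70 dB, 129.7, 131, 159 and 169 CPM at 94 dB and 126, 131, 170.3 and 134 CPM at 105 dB, groups that overlapped, and a log2 fold change of 0.29 ± 0.11 (SE, BH-adjusted p = 0.0661). Ndufa5, the accessory subunit of the module, rose by 0.44. Over the 7 nuclear core subunits, 4 were higher at 94 dB with a median of 0.33, and over the 29 accessory subunits 18 were, with a median of 0.49. After removal of the GC and length trend, 1 of the 7 core subunits was higher (median 0.14), 16 of the 29 accessory subunits (median 0.29) and 1 of the 5 Q module members (median 0.18). In that fit 1829 of 19497 genes were higher, so the counts of 1 say little about these groups.

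In the distal membrane arm 5 of 10 members were higher at 94 dB, against 13.9% of all genes, with a median of 0.42. Ndufb6, a single-helix subunit encoded at chr4:40270591-40279421 (minus strand), had 20.1, 23.3, 19.1 and 22.0 CPM at 70 dB, 32.9, 36.6, 53.5 and 54.5 CPM at 94 dB and 21.6, 21.2, 25.9 and 22.7 CPM at 105 dB. Replicates 3 and 4 of 94 dB were highest, but replicates 1 and 2 were also above all 70 dB and 105 dB libraries. The log2 fold change was 1.07 ± 0.15 (SE, edgeR adjusted p = 3.04e-04) and 0.72 without replicates 3 and 4 (adjusted p = 0.00117). Of its exon bases 39.0% overlap Smim27 on the opposite strand. Smim27 held 1.81 CPM at 70 dB, 3.40 at 94 dB and 3.46 at 105 dB, with log2 fold changes of 0.91 and 0.93 at the noise levels, while Ndufb6 at 105 dB had 0.11 ± 0.15 (SE).

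Ndufb11 had 94.7, 100.1, 87.4 and 90.2 CPM at 70 dB, 135, 133, 186 and 195 CPM at 94 dB and 113, 115, 129 and 90.8 CPM at 105 dB. The 94 dB libraries were all above the other groups, and replicates 3 and 4 again stood highest, with a log2 fold change of 0.80 ± 0.13 (SE, edgeR adjusted p = 9.84e-04). Ndufb8, a membrane subunit often used as a marker of assembled complex I on blots, had 56.5, 63.3, 53.5 and 61.2 CPM at 70 dB, 80.8, 79.8, 119 and 128 CPM at 94 dB and 53.3, 58.7, 72.8 and 56.9 CPM at 105 dB and a log2 fold change of 0.80 ± 0.15 (SE, BH-adjusted p = 0.00317). Its 105 dB value was 0.042 ± 0.15, with replicates 2 and 4 inside the 70 dB range and replicate 1 just below it. Ndufb10, another disulfide-bonded subunit, rose by 0.54 and Ndufb3, a single-helix subunit, by 0.49. Ndufb2 and Ndufb9, a subunit of the LYR protein family, stood at 0.0056 ± 0.10 and 0.0019 ± 0.20 (SE), and Ndufb4, Ndufb5 and Ndufb7 at 0.34, 0.20 and 0.30, without a call.

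Ndufab1, the mitochondrial acyl carrier protein that is both a subunit and a partner in fatty acid and iron-sulfur synthesis, had 87.5, 101, 92.9 and 94.9 CPM at 70 dB, 89.2, 85.6, 123 and 129.8 CPM at 94 dB and 98.7, 103, 113 and 93.0 CPM at 105 dB. Replicates 1 and 2 of 94 dB lay within or below the 70 dB range and replicates 3 and 4 above it. The log2 fold change was 0.18 ± 0.12 (SE, BH-adjusted p = 0.278). Ndufa4 had 152, 167, 151 and 174 CPM at 70 dB, 179.5, 173, 228 and 238 CPM at 94 dB and 165, 174, 190.0 and 156 CPM at 105 dB, with replicate 2 of 94 dB inside the 70 dB range. The rise of 0.35 ± 0.10 (SE, BH-adjusted p = 0.0180) was 0.13 without 94 dB replicates 3 and 4 (adjusted p = 0.362), and the call was also lost without 70 dB replicate 3, 94 dB replicate 3 or 94 dB replicate 4 alone. Ndufa4l2 had 6.42, 4.86, 4.46 and 4.36 CPM at 70 dB, 6.03, 5.63, 6.15 and 6.40 CPM at 94 dB and 4.99, 5.60, 6.66 and 4.47 CPM at 105 dB, with overlapping groups and a value of 0.27 ± 0.15 (SE, BH-adjusted p = 0.205).

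**Figure D3:**
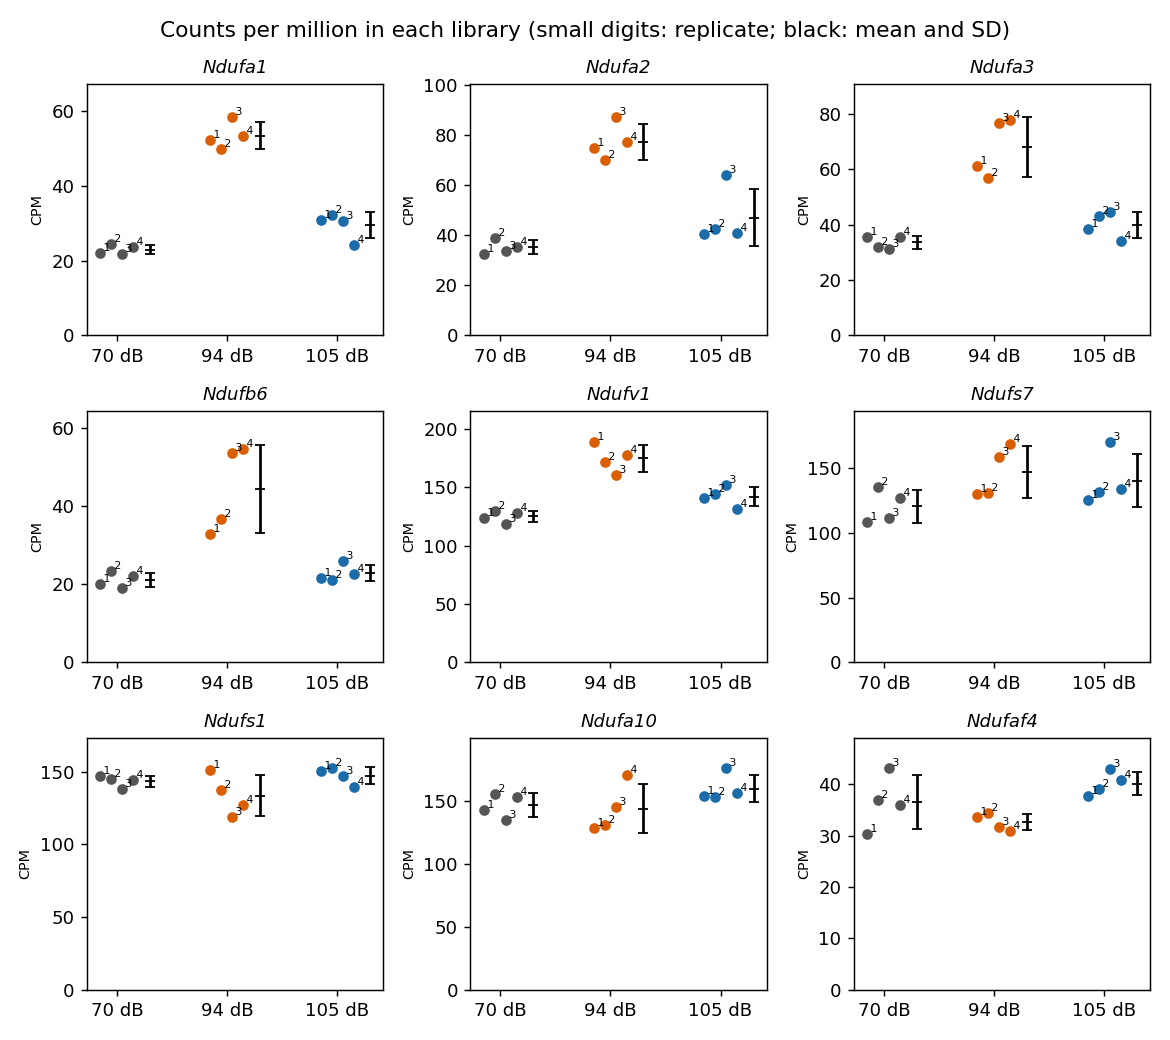
CPM (TMM-scaled, axis from 0) of 9 members in each of the 12 libraries, with the replicate number beside each point and the group mean and SD in black. Ndufa1, Ndufa2, Ndufa3, Ndufb6 and Ndufv1 have all 94 dB libraries above all 70 dB libraries, while in Ndufs7, Ndufs1, Ndufa10 and Ndufaf4 the groups overlap.

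Of the 8 assembly factors, 3 were higher at 94 dB and none lower, against 13.9% and 12.2% of all genes, with a median log2 fold change of 0.16. Ndufaf8, a partner of the hydroxylase Ndufaf5, rose by 0.73, with 13.1, 13.0, 12.4 and 14.1 CPM at 70 dB and 19.0, 18.2, 24.6 and 25.1 CPM at 94 dB. Ndufaf2 rose by 0.72, with 7.80, 7.22, 7.01 and 7.91 CPM at 70 dB and 10.5, 11.5, 15.0 and 12.5 CPM at 94 dB, and for both the groups did not overlap. Ndufaf3, which acts on the Q module, rose by 0.33, a value that was 0.090 with the GC and length trend removed. The values of Ndufaf1, a part of the membrane arm assembly complex, and of Ndufaf4, the partner of Ndufaf3, were -0.18 ± 0.12 and -0.16 ± 0.089 (SE). Ndufaf5, Ndufaf6 and the methyltransferase Ndufaf7 had 0.19, 0.13 and -0.032, none of them called.

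Of 11 further genes known to act in complex I assembly, 3 were higher and 1 lower at 94 dB, with a median of 0.12. Over all genes 13.9% were higher and 12.2% lower. Dmac1, a distal arm assembly gene, had 23.6 ± 2.07 CPM at 70 dB and 34.8 ± 6.89 CPM at 94 dB (SD, n = 4), with a rise of 0.56 ± 0.12 (SE) on the log2 scale. Timmdc1, a membrane arm assembly gene, and Foxred1, an oxidoreductase-like assembly factor, rose by 0.40 and 0.26, and Tmem126b, of the same assembly complex as Ndufaf1, fell by 0.23. After removal of the GC and length trend 4 of the 11 were higher and none lower, and Tmem126b had -0.075 (adjusted p = 0.550). Among 15 iron-sulfur cluster assembly genes 5 were higher and 1 lower, and 3 and none with the trend removed. Over all genes 1829 of 19497 were higher and 1177 lower with the trend removed. Nfu1, a late-acting cluster carrier, had a log2 fold change of 0.51 ± 0.10 (SE), and Glrx5, a glutaredoxin that passes clusters on, of 0.62 ± 0.14.

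Of 12 regulators of mitochondrial biogenesis, 1 was higher and 2 were lower at 94 dB, against 13.9% and 12.2% of all genes. Esrra, the orphan nuclear receptor ERR alpha that binds promoters of respiratory genes, had 53.6 ± 6.77, 122 ± 23.6 and 58.8 ± 4.46 CPM (SD, n = 4) at 70, 94 and 105 dB. Its log2 fold change at 94 dB was 1.19 ± 0.12 (SE, edgeR adjusted p = 4.02e-05) and at 105 dB 0.13 ± 0.12 (adjusted p = 0.596). Ppargc1a, the coactivator of that receptor, had -0.27 ± 0.067 (SE, BH-adjusted p = 0.00857), and Tfb2m, a mitochondrial transcription factor, had -0.37 ± 0.083 (SE, BH-adjusted p = 0.00458). With the GC and length trend removed the value of Ppargc1a was -0.032 (adjusted p = 0.789) and that of Tfb2m -0.23 (adjusted p = 0.0503), while that of Esrra was 0.90. In that fit 2 of the 12 regulators were higher and none lower, against 1829 and 1177 of 19497 genes. Nrf1, Gabpa and Yy1, which encode factors named above for their motifs, had 0.091, 0.048 and 0.13, none of them called, and after removal of the trend 0.15, 0.27 and 0.18, of which Gabpa was called (adjusted p = 0.0168).

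The 7 complex I genes of the mitochondrial genome went the other way at 94 dB, with 6 of 7 lower and a median log2 fold change of -0.89. Over all genes 12.2% were lower. mt-Nd1 had 6436 ± 112, 3759 ± 359 and 6189 ± 441 CPM (SD, n = 4) at 70, 94 and 105 dB, with a log2 fold change at 94 dB of -0.78 ± 0.083 (SE, edgeR adjusted p = 2.31e-05). mt-Nd3, at 4.79 ± 0.995 CPM at 70 dB, was the one not called. All genes of the mitochondrial genome together held 5.36 ± 0.25%, 3.13 ± 0.49% and 4.77 ± 0.43% of all counts in the 70, 94 and 105 dB groups, and the 46 nuclear members held 0.291 ± 0.017%, 0.365 ± 0.037% and 0.316 ± 0.031% (SD, n = 4). The libraries that stood apart differed in this list: 105 dB replicate 3, with the members at 0.40, had the mitochondrially encoded list at 0.054, while 94 dB replicates 3 and 4 had it at -1.10 and -1.10. Leaving out all mitochondrially encoded genes and all genes over 1% of counts changed no count of members called.

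**Figure D4:**
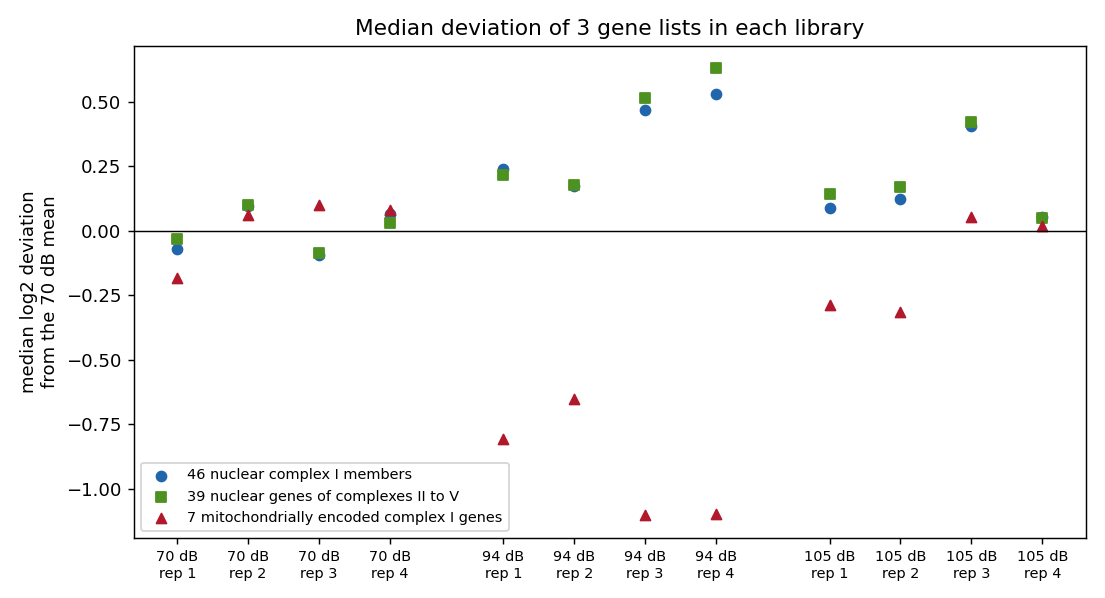
Median log2 deviation from the 70 dB mean in each of the 12 libraries for the 46 members, 39 nuclear genes of complexes II to V and 7 mitochondrially encoded complex I genes. The nuclear lists lie together in every library and are highest in 94 dB replicates 3 and 4 and 105 dB replicate 3, and the mitochondrially encoded list is lowest in the 94 dB libraries.

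The other nuclear respiratory genes gave values of the same size. Of 39 nuclear genes of complexes II to V, 22 were higher and none lower at 94 dB, against 13.9% and 12.2% of all genes, with a median of 0.41. Sdhd, a membrane anchor of complex II, had 0.56 ± 0.063 (SE, edgeR adjusted p = 3.30e-05), and Atp5g3, a subunit of the rotor of ATP synthase, 1.06 ± 0.13 (adjusted p = 1.03e-04). No difference between complex I and this list was tested.

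Marker genes of other cell types in the tissue were measured beside the members. No marker was at 0 in all libraries. Over all genes 13.9% were called higher and 12.2% lower at 94 dB. The summed level of 8 neutrophil markers was 7223 to 9001 CPM at 70 dB, 7316 to 14764 CPM after 94 dB and 7780 to 9368 CPM after 105 dB, with 3 of 8 called higher at 94 dB, and that of 7 erythroid markers was 18147 to 22272 CPM at 70 dB, 18844 to 32448 CPM after 94 dB and 22291 to 31436 CPM after 105 dB, with 2 higher and 1 lower. For 8 markers of brown adipocytes, which are rich in mitochondria, the sum was 146 to 201 CPM at 70 dB, 207 to 378 CPM after 94 dB and 169 to 249.8 CPM after 105 dB, with 2 of 7 tested higher at 94 dB. This list includes Cox7a1 and Cox8b, which are themselves nuclear genes of complex IV, and the sum is given with them. The 11 skeletal muscle markers summed to 6953 to 10544 CPM at 70 dB, 6018 to 11593 CPM after 94 dB and 8824 to 11234 CPM after 105 dB, with none called. Sums for 10 hair cell markers ran from 711 to 915 CPM at 70 dB, 801 to 1208 CPM after 94 dB and 828 to 1034 CPM after 105 dB, with none called, and for 8 marginal cell markers from 1136 to 1270 CPM at 70 dB, 959 to 1101 CPM after 94 dB and 1111 to 1185 CPM after 105 dB, with 1 lower at 94 dB. Pvalb is in both the hair cell and the skeletal muscle list, so the sums of these lists are not separate. The part of these cell types in the members' values was not tested.

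The size of the change at 94 dB went with exon length, counted over all annotated exons of a gene. All 10 members with under 1000 bases of exon were higher, with a median log2 fold change of 0.76, against 14.7% of all genes of that length. Of the 19 members with 1000 to 2000 bases 9 were higher (median 0.34), against 20.8% of all genes, and of the 17 longer members 7 were (median 0.20), against 12.6%. Spearman's rho between exon length and log2 fold change was -0.64 over the 46 members and -0.26 over all genes, where the points share the same 8 libraries. With the GC and length trend of all genes removed, rho over the members was -0.36, and 9 of 10, 5 of 19 and 6 of 17 members were called higher. Of all genes in these length classes 7.31%, 9.18% and 9.66% were then higher. Ndufa1, the shortest at 419 bases, then had a value of 1.06, and Ndufb8 and Ndufaf2, with 3146 and 2978 bases of exon, had 0.88 and 0.79. The longest protein-coding transcripts of Ndufb8 and Ndufaf2 have 2142 and 678 bases, and that of Ndufa3 has 515. The removed trend also used the length over all exons, and the relation to transcript length was not examined.

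**Figure D5:**
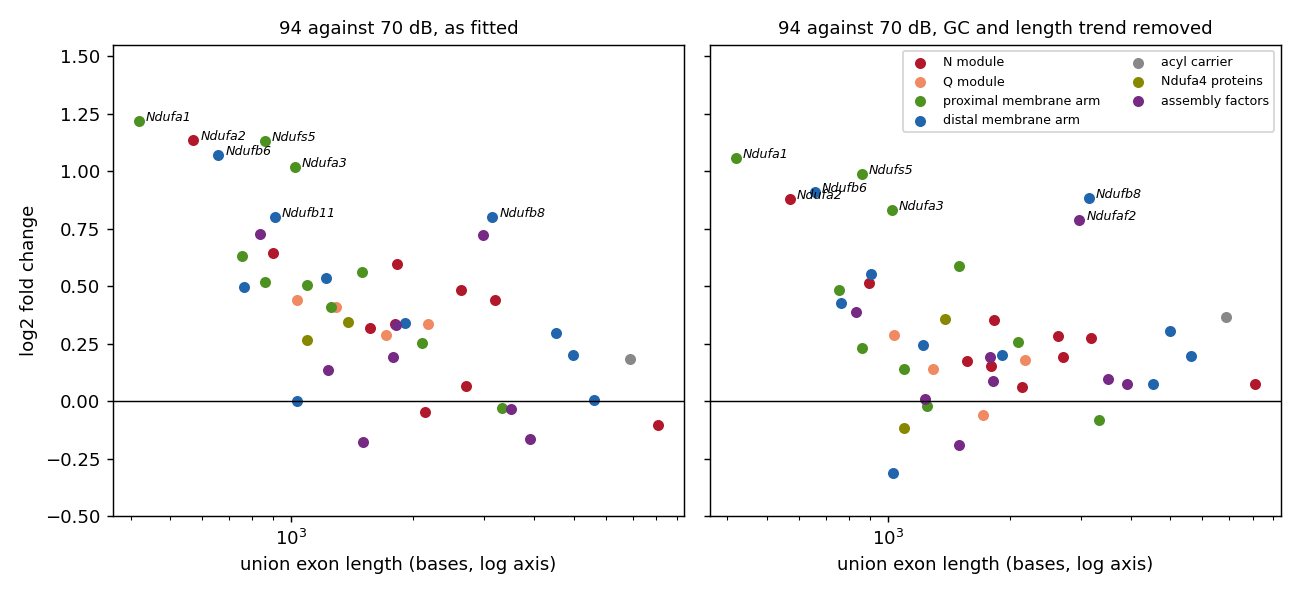
Log2 fold change at 94 against 70 dB of 45 of the 46 members against union exon length in bases (log axis), coloured by role, as fitted (left) and with the trend on GC content and length of all genes removed in each library (right). Ndufa1, the shortest, lies highest in both panels. Ndufa3, Ndufb8 and Ndufaf2, with 1022, 3146 and 2978 bases, lie above some members under 1000 bases in both panels. Ndufb8 and Ndufaf2, whose longest protein-coding transcripts have 2142 and 678 bases, stand out among those with longer union exons on the right.

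At 105 dB the members lay closer to the control. Only Ndufa1 was called higher than at 70 dB and none was lower, where 1.62% of all genes were called, 1.11% higher and 0.508% lower. Its log2 fold change was 0.36 ± 0.087 (SE, edgeR adjusted p = 0.0445), with 3 of 4 libraries above the 70 dB range. That call was lost without any 1 of 70 dB replicates 1, 3 and 4, of 94 dB replicate 4 or of 105 dB replicates 1, 2 and 3, with adjusted p-values of up to 0.177 in these fits. At an unadjusted p under 0.05, 12 members were higher and none lower, against 9.20% and 9.53% of all genes. DESeq2 called 3 members higher, where 509 of 19497 genes were higher and 382 lower. The groups did not overlap in 2 members with 105 dB higher and in none with 105 dB lower, against 5.78% and 5.03% of all genes.

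At 105 dB 45 of 46 values were above 0, with a median of 0.16, against -0.0039 over all genes. Without 105 dB replicate 3 alone 38 were above 0 and 8 below, with a median of 0.079, while after removal of the GC and length trend 40 were above 0, with a median of 0.089. All 11 skeletal muscle markers and all 7 erythroid markers also had values above 0 at 105 dB, with medians of 0.37 and 0.26 (0.29 and 0.25 with the trend removed), and their part in the members' values was not tested. Without 105 dB replicate 3 and 94 dB replicates 3 and 4 the median was 0.078. The largest values were those of Ndufa2 with 0.42 ± 0.13 (SE, edgeR adjusted p = 0.130), Ndufa1, and Ndufs3. For 35 of the 46 members the 105 dB mean lay between the means at 70 and 94 dB. The 94 dB mean was the highest of the 3 in 35 members, the 105 dB mean in 10 and the 70 dB mean in 1.

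When the noise levels were compared directly, 15 members were lower at 105 than at 94 dB and 1 was higher, where 17.3% of all genes were called, 9.23% lower and 8.06% higher. The groups did not overlap in 11 members with 105 dB lower and in 2 with 105 dB higher, against 10.8% and 10.5% of all genes. All 15 were among the 26 called higher at 94 dB, but both comparisons use the same 94 dB libraries. Ndufa1 had a log2 fold change of -0.86 ± 0.086 (SE, edgeR adjusted p = 1.94e-04), Ndufa3 of -0.77 ± 0.11 (adjusted p = 9.10e-04) and Ndufb6 of -0.96 ± 0.15 (adjusted p = 0.00190). These 3 were the ones called under every alternative. Ndufa2 with -0.72, Ndufs5 with -0.83 and Ndufb8 with -0.76 had the next smallest p-values, and each lost the call when 94 dB replicates 3 and 4 were left out, with adjusted p-values of 0.0847, 0.133 and 0.0667. Without those 2 libraries 4 members were lower, against 160 of 20202 genes, and the median of the members moved from -0.24 to -0.043.

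The 1 member called higher at 105 than at 94 dB, among 11 with a value above 0, was Ndufaf4, an assembly factor of the Q module. It had 30.3, 36.9, 43.1 and 36.0 CPM at 70 dB, 33.6, 34.4, 31.7 and 30.9 CPM at 94 dB and 37.6, 39.1, 42.9 and 40.8 CPM at 105 dB. The 105 dB libraries were all above the 94 dB libraries, while the 70 dB libraries spread over both. Its log2 fold change at 105 against 94 dB was 0.30 ± 0.089 (SE, edgeR adjusted p = 0.0307), and the call was lost without 94 dB replicate 3 or 4 or 105 dB replicate 2, 3 or 4, with adjusted p-values of up to 0.0880. The call was also lost after removal of the GC and length trend, at 0.14 (adjusted p = 0.278). Ndufaf1 had a similar value without a call, at 0.31 ± 0.12 (SE, BH-adjusted p = 0.0756).

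Within groups the members varied together over the 12 libraries. The median Pearson's r over 1035 pairs of members, taken on deviations from the group mean in log2 CPM, was 0.60, and the median r of a member to the mean of the others was 0.82, against -0.010 for other genes and 0.82 for the complexes II to V list. These libraries share depth and length trends, and after removal of the GC and length trend the medians were 0.36 and 0.66. The medians for other genes and for the complexes II to V list were then -0.026 and 0.70. The libraries that stood apart within their groups are among the 12, and r was not computed without them. Ndufa6 and Ndufs8 followed the others most closely (r = 0.965 and 0.955), and Ndufs1 and Ndufaf4 least (r = -0.42 and -0.089). With the trend removed the order changed, with Ndufv2 highest at 0.944 and Ndufv1 and Ndufa4l2 lowest at -0.25 and -0.21. Ndufa1, with the largest rise at 94 dB, had an r of only 0.562, and Ndufv1 of 0.293. These values are descriptions over 12 libraries.

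The reads of some members could not be assigned with certainty. Of the 46, 8 have an annotated pseudogene copy at 95% identity or more, and 7 share more than 10% of their exon bases with another gene, 14 members in all. Ndufa12 and its copy Gm15920, 99.5% identical, had 40.4 ± 3.08 and 23.5 ± 1.02 CPM at 70 dB (SD, n = 4), and their sum was 63.9 ± 3.43 CPM at 70 dB and 80.1 ± 11.5 at 94 dB, groups that did not overlap. Over the 32 remaining members, 18 were higher at 94 dB with a median of 0.34, 1 was higher at 105 dB, and 8 were lower and 1 higher at 105 against 94 dB. The shares over all genes were 13.9%, 1.11%, 9.23% and 8.06%.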

How the data were processed

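Per the labels' protocols, cochlear RNA was extracted with TRIzol and sequencing libraries were built with the TruSeq RNA kit of Illumina. The deposited table holds raw counts per Ensembl gene, not normalised, which the authors made with CASAVA, STAR and featureCounts 1.5.0-p3 on mm10, per the submitters' processing notes. The annotation, the use of strand and the treatment of multiply aligned reads are not named in these sources. Groups came from the sample titles, and 35474 of 35496 genes matched a symbol in GENCODE M21 (GRCm38). Library totals were 31141706 to 42317781 counts.

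Counts were tested with edgeR 4.0.16 in R 4.3.3: filterByExpr with a minimum count of 10 (19497 genes), TMM factors, a mean per group over all 12 libraries (9 residual degrees of freedom), robust quasi-likelihood F tests, and Benjamini-Hochberg adjustment over all genes at 0.05. CPM values are TMM-scaled. The steps were tested on simulated data. No 2 libraries of a group were duplicates: counts differed by 11.4 to 48.3 times the chi-square of sampling noise. The alternatives were other size factors and filters, DESeq2 1.42.0, a fit of the 8 libraries compared, replicate blocks, a trend on GC content and exon length removed per library (mgcv 1.9.3), leaving out each library, and leaving out 94 dB replicates 3 and 4. Leaving out those and 105 dB replicate 3 together, or those 2 with the trend removed, was chosen after seeing the data. Members were chosen by symbol, and the rule for values in every library names the nuclear core subunits, the 6 largest changes and the 6 smallest p-values per comparison among called members, and Ndufa4, Ndufa4l2 and Ndufab1; Ndufa10, Ndufaf2, Ndufaf4 and Ndufaf8 were added after their values were seen. Some values that this rule chooses are not reported here. The members and lists were chosen with earlier results of these data known. Copies are processed pseudogenes with at least 95% identity over at least 200 bases by blastn. Promoter sequences are RefSeq's.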

Additional observations from a re-analysis of the deposited data

Results flagged for a closer look

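In groups of 4 libraries, a library was singled out where its gap to the nearest other exceeded Dixon's 95% critical value for the group's range, which chance alone gives in about 1 in 20 groups. Of 138 groups (46 members in 3 groups) 9 met this, none at 70 dB, and 8 of the 9 were 105 dB replicate 3 as the highest library. In that library Ndufa2 had 64.1 CPM, while the other 3 libraries of the group had 40.6 to 42.6 CPM. Ndufv2 had 203 CPM, Ndufa10 176, Ndufs8 94.7, Ndufa8 89.0, Ndufa5 85.3, Ndufb3 52.1 and Ndufaf1 19.2 CPM there. The remaining one was Ndufs4 in 94 dB replicate 4, with 65.0 CPM against 54.8 to 55.8 CPM in the others. The 8 values share 1 library, so they are not 8 separate events.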

How the results depend on the processing

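The count of members higher at 94 dB ran from 21 to 30 over the fits that leave out 1 library, and the median log2 fold change kept its sign in every alternative. It was 14 without 94 dB replicates 3 and 4, and 14 with the trend on GC content and length removed as well, when the median was 0.13. Over all genes, 1034 and 722 of 20202 were higher in these fits. The count lower at 94 dB was 0, except for 1 under the replicate block with that trend removed and a range of 0 to 1 over the fits that leave out 1 library.

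At 105 against 70 dB the count of members higher was 0 with upper-quartile factors, the replicate block, the trend removed, a fit of the 8 libraries compared, without 94 dB replicates 3 and 4 and 105 dB replicate 3, and without the former with the trend removed. It was 2 without a filter on low counts and with a block by code number, 3 with DESeq2, and 0 to 3 over the fits that leave out 1 library. At 105 against 94 dB the count higher was 0 with the block by code number, the trend removed, the block with the trend removed, and without 94 dB replicates 3 and 4 (alone, with 105 dB replicate 3, or with the trend removed), and 0 to 2 over the fits that leave out 1 library. The count lower was 4, 9 and 5 in those last 3 fits, where 160, 254 and 88 of all genes were lower. It was 10 to 20 over the fits that leave out 1 library. The median was -0.043 without 94 dB replicates 3 and 4 and -0.051 with the trend removed as well.

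Of the 26 members called at 94 dB, 2 had a value below 0 in some alternative, Ndufs8 and Ndufa11, with lowest values of -0.0082 and -0.00075. Ndufs1 was 0.075 with the trend removed, 0.075 with the block as well, 0.012 without 94 dB replicates 3 and 4, 0.0087 without 105 dB replicate 3 too, and 0.14 without the former with the trend removed. Ndufv2 was 0.063 with the trend removed, 0.058 with the block as well, and -0.11 to 0.017 over the fits that leave out 1 library. Ndufs7 was -0.058, -0.055 with the block as well, and -0.11 without 94 dB replicates 3 and 4 and with the trend removed, where Ndufs8 was -0.0082 and Ndufa4l2 -0.024. Ndufa4l2 was -0.12 with the trend removed and -0.11 with the block as well. Ndufab1 was -0.10 without 94 dB replicates 3 and 4 and -0.11 without 105 dB replicate 3 too. The causes were not tested.

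With upper-quartile factors 2329 genes were higher and 2847 lower at 94 dB, and 25 of the 26 members kept their call. The replicate block kept 25 of the 26 calls at 94 dB and all 16 at 105 against 94 dB. Same-numbered libraries of different groups correlated at -0.28 to 0.24 in their deviations, over 0.1 in 6 of 12 pairs. Of libraries in other groups, 8 of 12 libraries correlated best with one of their own number. The main fit did not pair the samples by number, and whether the numbers mark shared handling was not tested. The lowest count of a member in any library was 101, and the part of counting error in the calls was not tested.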
